A study of Pinctada imbricata with 5 samples.

Results

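Ribosomal proteins of the cytosol were followed in pearl sacs of an oyster on 5 days after implantation. They were the unigenes, that is assembled transcripts, whose best protein match carries the words ribosomal protein and not mitochondrial, kinase, methyltransferase or acetyltransferase. The rule kept 22 of the 19415 unigenes listed in the 5 libraries, and left out 29 of the 51 unigenes with the words ribosomal protein in their match. By the name of the match 10 were proteins of the small subunit and 8 of the large subunit, and 1 was a P0-like protein. The label of cytosolic protein did not hold for all of them. The other 3 members were named 28S S9 (Unigene87891), 39S L44 (Unigene91018) and 50S L2 (Unigene89300), which are names of mitochondrial or bacterial ribosomal proteins, and the summed tags moved within their counting interval without them. A gene ontology component was given for 16 members, and a term with the word cytosolic for 5.

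A pearl sac grows when a graft of mantle epithelium closes around a bead placed in a host oyster, and its cells secrete the pearl. Each library was made from pearl sac of oysters aged 1.5 years, taken 10, 15, 20, 30 or 60 days after surgical implantation, with 1 library per day. No label names a strain, a treatment or an untreated group, the number of oysters behind a library is not stated there, and the species is given as Pinctada imbricata in the sample labels and Pinctada martensii in the title. Tags of 21 bases that begin at a CATG site were counted. In bulk tissue fewer cells of a type and less RNA per cell cannot be told apart.

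A ribosome is built from a small subunit, which reads the messenger RNA, and a large subunit, which joins the amino acids, and each holds ribosomal RNA and a set of proteins. In most animal cells most of these proteins are needed in 1 copy per ribosome, and their messenger RNAs are among the most abundant and are often regulated together. Tissues that secrete much protein, as the epithelium of a pearl sac does with its shell matrix, depend on many ribosomes.

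The total number of tags was 4700927 to 4784094 per library, of which 600848 to 1339346 were listed for unigenes. Levels are given as scaled TPM, the authors' TPM divided by a scaling factor of the library. They carry no correction for transcript length, and lengths are not in the files. No order of level between different proteins is drawn. A member was called higher or lower between 2 days when the larger of its levels was 10 scaled TPM or more and its ratio exceeded 2-fold over the full 95% interval. Intervals cover counting error only. With 1 library per day there is no measure of the spread between oysters and no p-value. A unigene with no listed tag may still have had a tag seen once, since no listed tag had fewer than 2 copies.

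Of the 22 members, 13 were listed on every day and 8 had fewer than 20 tags over all libraries. L23a, L9 and S10 together held 91.5% of the 74387 tags of the members. The level of 10 scaled TPM was reached on some day by 9 members, of which 4 were of the large and 5 of the small subunit. The member closest above that level was L35a (Unigene33454), with 10.1 scaled TPM on day 60, and the closest below was the S30 match Unigene84096, with 7.65 on day 20.

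Summed over all members, the tags took, in order of day, 0.248% of the library's total (95% interval 0.243% to 0.252%), 0.326% (0.321% to 0.331%), 0.328% (0.323% to 0.333%), 0.285% (0.280% to 0.290%) and 0.379% (0.374% to 0.385%). As summed scaled TPM this was 2619, 2810, 3641, 3227 and 3315 in order of day. The summed level was lowest on day 10 and highest on day 20, and by share of the total it was highest on day 60. These sums cover the members alone, which by name are only some of the proteins of each subunit. Most tags of each library were not listed for a unigene, and any ribosomal protein tags among them are not counted. The sums are therefore no measure of all ribosomal proteins of the cytosol, and L23a, L9 and S10 held most of their tags. Without the L23a, L9 and S10 tags, the other 19 members summed to 125 and 133 scaled TPM on days 10 and 15, to 550 and 487 on days 20 and 30, and to 121 on day 60. L22e made most of the difference, since the sum of these members without it was 109, 123, 165, 116 and 120.

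**Figure D1:**
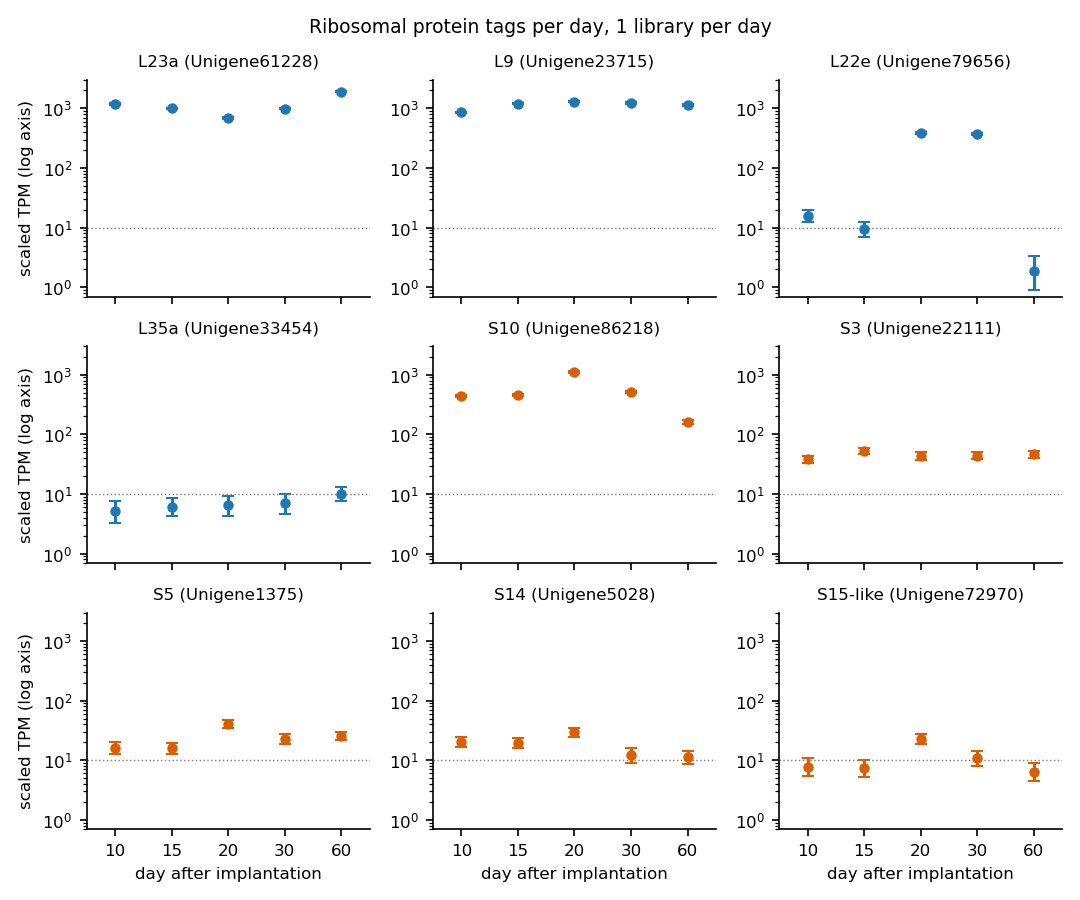
Scaled TPM (log axis) of the 9 ribosomal protein unigenes that reached 10 scaled TPM, by day after implantation, with large subunit proteins in blue and small subunit proteins in orange. Points are single libraries, bars are 95% Poisson intervals of the tag count and the dotted line is 10 scaled TPM. L22e spans 1.84 to 384 scaled TPM, whereas S3 and L9 stay within 38.0 to 52.9 and 859 to 1295.

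Among the 4 large subunit proteins of 10 scaled TPM or more, L22e (Unigene79656) had the widest range. L22 is an RNA-binding protein at the surface of the large subunit, and in mice ribosomes still translate without it. Its match was to the L22e of a beetle. In order of day it had 71, 52, 1658, 1540 and 10 tags, which is 15.9, 9.38, 384, 371 and 1.84 scaled TPM. Days 20 and 30 were high and alike, and the other 3 days were low. From day 15 to day 20 L22e rose 41.0-fold (31.1 to 55.1), and from day 30 to day 60 it fell 201-fold (109 to 421). Its ratio of day 30 to day 20 was 0.965 (0.899 to 1.03), and on day 60 it was 8.61-fold lower than on day 10 (4.42 to 18.7). Among the 2196 unigenes of 10 scaled TPM or more on some day, 97.8% had a smaller ratio of the highest to the lowest day. Unlisted days were set at 3 tags. These unigenes were not matched to the members by tag count.

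Nearly all day 20 and day 30 tags of L22e came from the CATG site closest to the 3′ end of the unigene, called site 1, and few from site 3. These are the tags listed for L22e, shown with the CATG in capitals.
L22e site 1: CATGaccaagaaatacctaaa
L22e site 1, second form: CATGaccaagaagtacctgaa
L22e site 3: CATGccgcagaacgttaagag
The first of them was counted 69, 44, 1654 and 1538 times on days 10, 15, 20 and 30, and was not listed on day 60. The second form differs from it by A13G and A19G, with positions counted from 1 at the C of CATG, and was listed on day 60 alone, with 2 copies. The site 3 tag had 2, 8, 4, 2 and 8 copies in order of day. Site 3 therefore held, in the same order, 2.82% of the L22e tags (0.343% to 9.81%), 15.4% (6.88% to 28.1%), 0.241% (0.0658% to 0.617%), 0.130% (0.0157% to 0.468%) and 80.0% (44.4% to 97.5%). The interval of day 60 lay above those of the other 4 days. The copies at site 3 were few on every day, and it was the site 1 tag that separated days 20 and 30 from the rest. The files do not say whether both forms and both sites belong to transcripts of 1 gene.

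**Figure D2:**
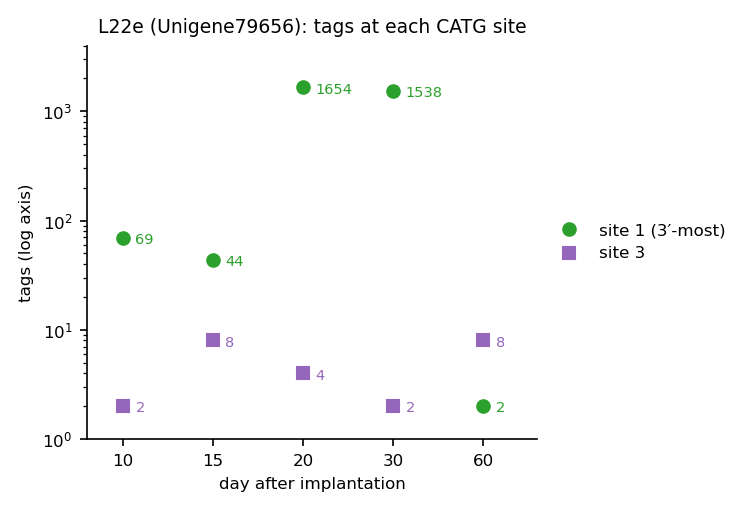
Tags of L22e (Unigene79656) at CATG site 1, the 3′-most, and at site 3, by day after implantation (tags, log axis), with 1 library per day and the count beside each point. Site 1 goes from 44 tags on day 15 to 1654 on day 20 and from 1538 on day 30 to 2 on day 60, while site 3 stays between 2 and 8.

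L23a (Unigene61228), which lines the exit of the tunnel that the new protein leaves by and is a docking point for the signal recognition particle, had 5346, 5554, 2946, 4116 and 10252 tags in order of day. These are 1194, 1002, 683, 991 and 1888 scaled TPM, so that day 20 was the lowest and day 60 the highest. Nearly all of its tags were of 1 form, at site 1.
L23a: CATGaagaagattgaagacaa
Day 60 against day 30 had a ratio of 1.91 (1.84 to 1.98), and the lowest and highest days differed 2.76-fold (2.65 to 2.88). No change between the days compared passed the rule. With scaling by total tags alone the day 60 to day 30 ratio was 2.47 (2.38 to 2.56), which passes.

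L9 (Unigene23715), also of the large subunit, was the steadiest of the 3 members with the most tags.
L9: CATGgtcagcaagaagacgat
It had 3846, 6705, 5584, 5114 and 6210 tags, or 859, 1210, 1295, 1232 and 1144 scaled TPM. Day 10 was low and the later 4 days were within 1144 to 1295. The ratio of its highest to its lowest day was 1.51 (1.45 to 1.57). That was smaller than for all but 1.18% of the unigenes that reached 10 scaled TPM on some day, which were not matched to L9 by tag count.

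The ratio of 2 proteins within a library does not depend on any scaling between libraries. Per L9 tag there were, in order of day, 1.39 L23a tags (1.33 to 1.45), 0.828 (0.799 to 0.858), 0.528 (0.504 to 0.552), 0.805 (0.772 to 0.839) and 1.65 (1.60 to 1.70). Of these intervals only those of days 15 and 30 overlapped. S10 was highest on the day on which L23a was lowest. Its tags per L9 tag were 0.511 (0.484 to 0.540), 0.384 (0.367 to 0.402), 0.859 (0.827 to 0.893), 0.420 (0.400 to 0.442) and 0.141 (0.131 to 0.151). The tags of L23a, L9 and S10 thus did not keep 1 proportion over the days. For L22e the ratio to L9 went from 0.00776 on day 15 to 0.297 on day 20 and from 0.301 on day 30 to 0.00161 on day 60. For S3 it lay between 0.0335 and 0.0442, with overlapping intervals on all days.

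**Figure D3:**
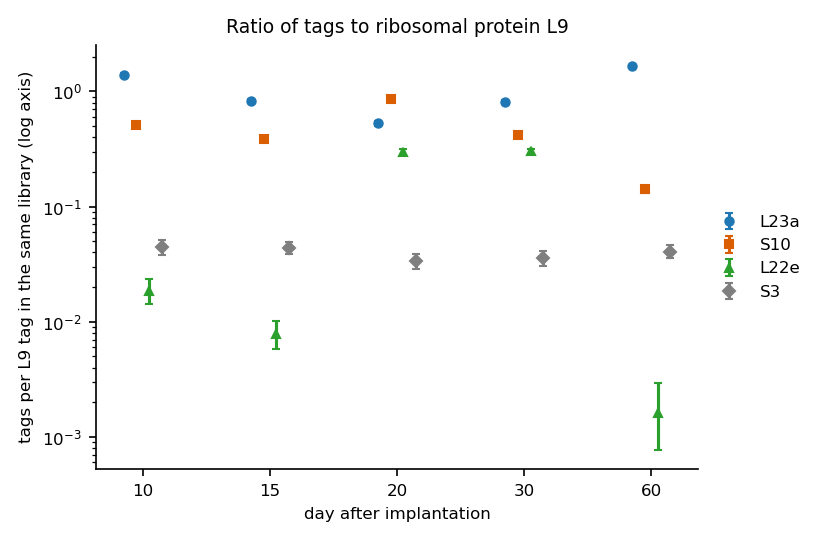
Tags of L23a, S10, L22e and S3 per tag of L9 in the same library (log axis), by day after implantation. Points are single libraries and bars are 95% Clopper-Pearson intervals, which are smaller than some points. L23a is lowest (0.528) and S10 highest (0.859) on day 20, and both are reversed on day 60 (1.65 and 0.141).

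The unigenes that matched L35A, another protein of the large subunit, were near or under the minimum of 10 scaled TPM. Unigene33454 had 23, 34, 28, 29 and 55 tags, 5.14 to 10.1 scaled TPM, and its day 60 level was 1.97 times that of day 10 (1.19 to 3.36). Unigene33229 had 29, 34, 9, 10 and 25 tags and stayed under the minimum level. L26 (Unigene24281) had 11, 11 and 27 tags on days 10, 20 and 30, and was not listed on days 15 and 60. Its tag is CATGggaaggtgcattaaaat, at site 1. With unlisted days set at 3 tags, L26 fell at least 4.54-fold from day 10 to day 15. The near end of the 95% interval, which takes an unlisted day as 0 tags, was 3.11-fold. At a minimum of 1 scaled TPM, 14.2% of unigenes fell by the rule in that step, as L26 did. It rose at least 4.71-fold to day 20 (3.23-fold at the near end), against 13.3% of unigenes, and fell at least 11.8-fold from day 30 to day 60 (8.93-fold at the near end), against 9.64%. On day 60 it was at least 4.45-fold lower than on day 10 (3.04-fold at the near end), against 12.2%. The first fold of each pair leaves out counting error, which the near end of the interval includes. The rule rests on that interval, with the unlisted day as 0 tags. The L37 match (Unigene88456) had 7 tags, all on day 15, and L11 (Unigene86022), which binds MDM2 in mammals, had 2, on day 60. The P0-like match (Unigene88384), whose terms include ribosome biogenesis, had 7 tags on day 15 and 3 on each of days 20 and 60. P0 itself is the base of the stalk that recruits elongation factors.

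Of the 5 small subunit members of 10 scaled TPM or more, S10 (Unigene86218) had the widest range over the days. S10 lies on the head of the subunit, and in human cells it is marked with ubiquitin on stalled ribosomes. Its tag counts were 1967, 2575, 4799, 2150 and 875 in order of day, or 439, 465, 1113, 518 and 161 scaled TPM. Day 20 was the high day and day 60 the low one. S10 rose 2.40-fold from day 15 to day 20 (2.28 to 2.51) and then fell 2.15-fold to day 30 (2.04 to 2.26) and 3.21-fold from day 30 to day 60 (2.97 to 3.48). On day 60 it was 2.73-fold lower than on day 10 (2.52 to 2.96). The rise to day 20 was a ratio of 1.86 with scaling by total tags and the fall to day 30 a ratio of 0.479 with DESeq2 size factors, and neither then passed the rule.

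All 12366 tags of S10 were of 1 form and lay at site 2, with none at site 1 in any library. S14 also had its tags at site 2, 433 of 435. These are their tags.
S10 site 2: CATGgcgtcatttttactggt
S14 site 2: CATGgacaaaggtgtcattga
Of the 14 members with at least 20 tags these 2 had 90% or more of their tags off site 1, against 12.2% of the 6254 unigenes with as many tags, which is a share near the background. None of these 14 had 10% or more of its tags at each of 2 sites over the 5 libraries, as 20.5% of the unigenes with as many tags did. Among the members with fewer tags, 50S L2, 28S S9, the P0-like match and the L37 match did, with 19, 16, 13 and 7 tags. In the S15-like match (Unigene72970) 7.87% of tags were at site 2. They were listed on days 10, 15 and 30 and not on days 20 and 60.

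**Figure D4:**
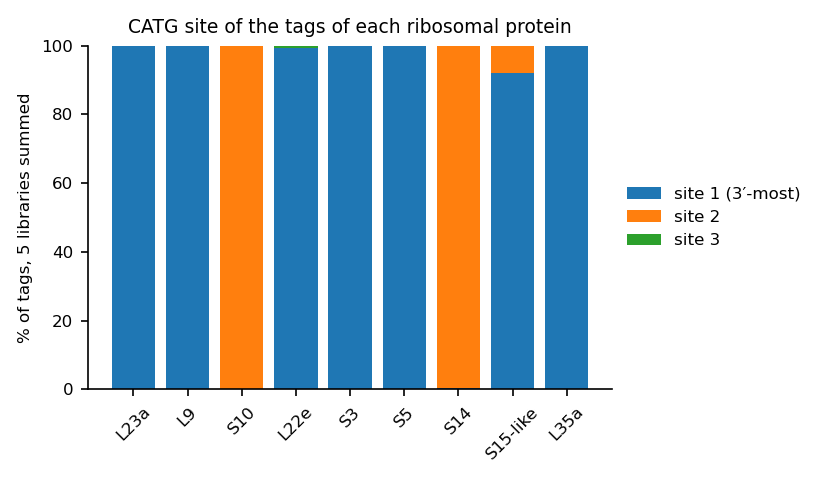
Share of the tags of each of the 9 ribosomal protein unigenes of 10 scaled TPM or more at each CATG site, counted from the 3′ end (% of tags summed over 5 libraries). S10 and S14 are counted almost wholly at site 2 and the others at site 1, with 7.87% at site 2 in the S15-like match.

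Over all members, site 1 held 82.3%, 82.6%, 68.6%, 83.5% and 94.7% of the tags in order of day. Without S10 the same shares lay between 98.8% and 99.6%. For all unigenes without Unigene51171, which had no tag at site 1 and was the most abundant unigene, they were 83.2% to 87.6%.

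S5, S14 and S15-like had their highest level on day 20, as S10 did. S5 (Unigene1375) lies at the exit of the messenger RNA channel. It had 72, 88, 177, 95 and 139 tags, or 16.1, 15.9, 41.0, 22.9 and 25.6 scaled TPM. The ratio of day 20 to day 15 was 2.58 (1.99 to 3.38) and just missed the rule. S14 (Unigene5028), which is lost from 1 chromosome copy in a human marrow disease, had 91, 107, 126, 50 and 61 tags, 20.3, 19.3, 29.2, 12.0 and 11.2 scaled TPM. Its ratio of day 30 to day 20 was 0.412 (0.291 to 0.576) and did not pass the rule. S15-like had 35, 41, 98, 45 and 35 tags, or 7.82, 7.40, 22.7, 10.8 and 6.45 scaled TPM. From day 15 to day 20 it rose 3.07-fold (2.11 to 4.54). With scaling by total tags that ratio was 2.39 and did not pass. The match of S15-like, to a marmoset protein, was the weakest of the members. Its E value was 2.65e-06, against at most 1.62e-11 for the others, and it had no gene ontology component. The name S15-like is therefore less secure than those of the other members.
S5: CATGggagttagatgatccct
S15-like: CATGcttgactggtttgtatg

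S3 (Unigene22111), which lies at the entry of the messenger RNA channel, had 170, 293, 187, 183 and 252 tags, or 38.0, 52.9, 43.4, 44.1 and 46.4 scaled TPM. The ratio of its highest to its lowest day was 1.39 (1.15 to 1.69). That was smaller than for all but 0.592% of the same unigenes, which were not matched to S3 by tag count. S3 and L9 were the 2 of the 9 members of 10 scaled TPM or more with the least range.
S3: CATGatgaatcgtagtacacc
Under the minimum level were SA (Unigene7110), matched to the oyster Pinctada fucata and known also as the laminin receptor, with 13, 19, 20, 10 and 12 tags, and S13 (Unigene81612), with 2 tags on day 10 and 4 on day 15. The members named 50S L2, 28S S9 and 39S L44 had 19, 16 and 3 tags in all.

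For S30, L35A and S5 the files hold a pair of unigenes each with the same protein name. S30 is made as a fusion with a ubiquitin-like protein. The tags of the S30 and L35A pairs differ and are shown because they tell the unigenes apart.
S30 Unigene84096: CATGcagtacaacaggagatt
S30 Unigene29618: CATGctcggaggtaaggtcca
L35A Unigene33454: CATGtggccttgtgattttcc
L35A Unigene33229: CATGagaacacagctttattg
Unigene84096 had 13, 5, 33, 24 and 29 tags and Unigene29618 had 21, 24, 11, 9 and 25. The first held 38.2% of the S30 tags (22.2% to 56.4%), 17.2% (5.85% to 35.8%), 75.0% (59.7% to 86.8%), 72.7% (54.5% to 86.7%) and 53.7% (39.6% to 67.4%) in order of day. The interval of day 15 lay below those of days 20, 30 and 60. Unigene33454 held 44.2% of the L35A tags (30.5% to 58.7%), 50% (37.6% to 62.4%), 75.7% (58.8% to 88.2%), 74.4% (57.9% to 87.0%) and 68.8% (57.4% to 78.7%). Here the interval of day 10 lay below that of day 20 by a small margin, and those of days 15, 20, 30 and 60 overlapped. In both pairs 1 unigene held about 75% on days 20 and 30. No tag is shared within a pair, but the files do not say whether a pair is 2 genes, 2 alleles or 2 parts of 1 transcript. The second S5 unigene (Unigene65698) had 7 tags on day 15 and 6 on day 60.

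**Figure D5:**
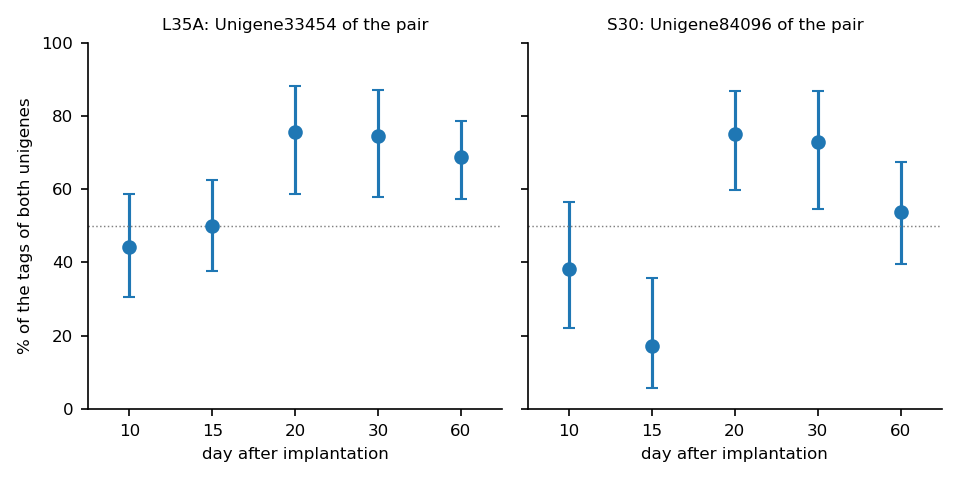
Share of 1 unigene in the tags of both unigenes that match L35A (left) and S30 (right), by day after implantation (%, 95% Clopper-Pearson intervals, 1 library per day, dotted line at 50%). On days 20 and 30 both shares lie between 72.7% and 75.7%, and on day 15 they are 50% and 17.2%.

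Between the days compared, few members passed the rule. From day 10 to day 15, 0 of 7 members compared rose and 0 fell, while of all unigenes compared 20.3% were higher and 24.0% lower. From day 15 to day 20, 3 of 8 rose (L22e, S10 and S15-like) and 0 fell, against 25.2% higher and 27.3% lower. From day 20 to day 30, 0 of 8 rose and 1 fell (S10), against 20.1% and 18.8%. From day 30 to day 60, 0 of 9 rose and 2 fell (L22e and S10), against 15.7% and 15.2%. On day 60 against day 10, 0 of 8 were higher and 2 lower (L22e and S10), against 14.4% and 19.0%. Each step shares its earlier library with the step before it, so a rise and fall around 1 day, as for S10 around day 20, rests on 1 library. The comparisons with day 60 share that library, and the last also shares the day 10 library with the first. The log2 ratio, taken after adding 1 to each level, had a median over the 9 members of -0.02, 0.57, -0.07, -0.09 and 0.28 in the same order, beside -0.14, 0.00, 0.00, 0.00 and -0.12 over the 2196 unigenes of that level. The interval of the members' median, from the ordered members, spanned 0 in each comparison, and was -0.25 to 0.47, -0.28 to 1.50, -1.10 to 0.09, -1.68 to 0.48 and -1.44 to 0.66. With so few members and a minimum that a member can pass by its high day alone, these counts and medians are descriptions.

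Of the 9 members, 6 were highest on day 20, 1 on day 15 (S3) and 2 on day 60 (L23a and L35a), while of the 2196 unigenes 16.4%, 26.3%, 23.1%, 12.8% and 21.4% were highest on the 5 days in order. With scaling by total tags L9 was highest on day 15 and 5 members on day 20, against 19.2%.

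Other genes of translation, and of messenger RNA cap or tail binding, were taken from lists of words in the protein match. Among 9 unigenes of elongation factors, elongation factor 1 alpha (Unigene42240), which brings aminoacyl-tRNA to the ribosome, was the 1 member compared. It had 93, 27, 149, 121 and 93 tags, fell 4.26-fold to day 15 (2.75 to 6.81) and rose 7.09-fold to day 20 (4.68 to 11.1). Of 24 unigenes of initiation factors 3 were compared at most. The match to subunit 2 beta of eIF3 (Unigene90069), the factor that holds the small subunit ready for messenger RNA, had 322, 98, 51, 522 and 686 tags. It fell 4.07-fold to day 15 (3.24 to 5.15) and rose 10.6-fold from day 20 to day 30 (7.96 to 14.5). Subunit F of eIF3 (Unigene80803) fell 2.84-fold in that step (2.29 to 3.54), and initiation factor 1A (Unigene90067) rose 7.43-fold to day 60 (3.42 to 19.2). The eIF3 subunits thus moved in opposite directions from day 20 to day 30.

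Polyadenylate-binding protein 2 (Unigene85303), the 1 member of 2 in the list of termination and messenger tail factors that was compared, rose 3.76-fold to day 15 (2.74 to 5.27) and fell 8.11-fold to day 20 (5.18 to 13.4). It was taken as a tail-binding protein by its name, and a part in translation was not tested. Among 21 unigenes of tRNA synthetases, the valyl-tRNA synthetase match (Unigene77381) fell from 98 to 2 tags between days 10 and 15, 60.7-fold (16.4 to 508). It was not listed on day 60. With day 60 set at 3 tags it was at least 39.6-fold lower than on day 10. The near end of the 95% interval, which takes day 60 as 0 tags, was 31.6-fold. The tryptophanyl-tRNA synthetase match (Unigene92685) fell from 53 to 3 tags between days 20 and 30, 17.0-fold (5.51 to 85.1). In the list of ribosome biogenesis (18 unigenes), bms1 (Unigene88796), which assembles the small subunit, fell 3.38-fold to day 20 (2.39 to 4.87), and no other call was made.

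Of the mitochondrial ribosomal proteins (28 unigenes, 6 of 10 scaled TPM or more), 4 of 6 compared rose to day 15 and 0 fell, against 20.3% and 24.0% of all unigenes. L41 (Unigene88396) rose 4.81-fold (3.57 to 6.61) and L12-like (Unigene89745) 4.73-fold (3.31 to 6.94). To day 20, 5 of 6 fell and 0 rose, against 27.3% and 25.2%, L41 by 7.63-fold (5.26 to 11.4). The rise and the fall both rest on the day 15 library. S26 (Unigene88500) rose and fell in these steps too, without a call, with 8.94, 24.0 and 13.4 scaled TPM on days 10, 15 and 20. On days 30 and 60 it stood above its day 15 level, at 29.1 and 28.4. Their medians were 1.67 and -1.97 in these steps, beside -0.02 and 0.57 for the 9 members of the cytosol. No call was made in the next 2 steps, with 3 and 4 compared, against 20.1% higher and 18.8% lower and then 15.7% and 15.2%. On day 60 against day 10, 1 of 5 was higher and 0 lower, against 14.4% and 19.0%. The difference between the lists was not tested.

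Markers of the tissue and of other cells differed between the same libraries. Shell matrix and mantle genes (28 unigenes) summed to 569, 89.7, 224, 892 and 83.1 scaled TPM in order of day. To day 15, 7 of 10 compared fell and 0 rose, against 24.0% lower and 20.3% higher over all unigenes. To day 20, 4 of 6 rose and 1 fell (25.2% and 27.3%), and to day 30, 5 of 9 rose and 3 fell (20.1% and 18.8%). To day 60, 0 of 6 rose and 4 fell (15.7% and 15.2%), and 7 of 10 were lower on day 60 than on day 10 (19.0%). Tyrosinase-like protein 1 (Unigene1470) of the prismatic layer made up 252 and 631 of the summed scaled TPM on days 10 and 30. It was not listed on days 15, 20 and 60. Of the 3 that fell to day 30, mantle gene 1 (Unigene89281) went from 104 to 0.482 scaled TPM. Motile cilia genes (29 unigenes) summed to 7.60, 131, 6.49, 7.47 and 16.8, and 3 of 3 compared rose to day 15 (20.3% of all unigenes) and fell to day 20 (27.3%), both resting on the day 15 library, among them axonemal dynein heavy chain 5 (Unigene82585), 22.1-fold up (13.5 to 39). Hemocyte genes (3 unigenes) summed to 160, 26.7, 37.6, 171 and 155, mostly allograft inflammatory factor 1 (Unigene89534), which fell 6.13-fold to day 15 (5.12 to 7.39) and rose 4.86-fold to day 30 (4.07 to 5.83). Digestive gland genes (7 unigenes) summed to 23, 15.2, 18.1, 6.02 and 5.34, and the pancreatic lipase-related protein (Unigene92137) fell to day 15 and to day 30. Muscle genes (17 unigenes) summed to 4.47 to 15.7 and egg and germline genes (4 unigenes) to 0.361 to 1.93, with no member at 10 scaled TPM. The part of these cells in the changes of L22e and S10 was not tested.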

How the data were processed

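Digital gene expression tags were counted in pearl sac at 5 days, with 1 library per day. The files deposited by the authors give for each unigene a raw count, summed over its tags per the file headers and the values, and a TPM, by the values the count over the library's total with no length correction. They also list each tag with its copy count and its CATG site from the 3′ end. Such tags do not come from the TruSeq RNA kit that the labels name. The aligner and the assembly were not stated by labels or headers.

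Totals were recovered as count over TPM (median over unigenes of at least 5000 tags). Scaling factors by TMM in edgeR 4.0.16 (R 4.3.3) were 0.946, 1.16, 0.901, 0.883 and 1.14 in order of day. The minimum of 10 scaled TPM is 41.5 to 55.4 tags. Intervals are Clopper-Pearson 95% intervals conditional on the 2 counts, computed with Python 3.11.15 and scipy 1.17.1. Calling was tested on simulated counts with counting error only and with changes larger than 2-fold. Such counts cannot test calls near 2-fold or the spread between oysters. The members and the 12 gene lists were chosen with earlier results of these data known. Named were members of 10 scaled TPM or called, the 5 with the most tags, those with tags at 2 sites and, of the lists, called genes, at most 4 per list and comparison by largest ratio; of those, the text gives examples. The remaining members were named after their values were seen. Alternatives were total tags, DESeq2 1.42.0 size factors, site 1 alone, members without the 28S, 39S or 50S names, a minimum of 1 scaled TPM and a pseudocount of 5. Members without L22e was added after seeing the data.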

Additional observations from a re-analysis of the deposited data

How the results depend on the processing

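Of the 8 calls of a member between days, 6 kept their side of the rule with scaling by total tags and 7 with DESeq2 size factors. With site 1 alone S10 had no tags, and the other 4 calls held. Members higher from day 15 to day 20 were 3, and 1 with total tags or 2 with site 1 alone or without L22e. With a minimum of 1 scaled TPM they were 5, which added S30 (Unigene84096, 8.48-fold, 3.29 to 27.8) and L26. Members lower from day 10 to day 15 were 0, and 1 (L26) at that minimum. Members lower from day 20 to day 30 were 1, and 0 with DESeq2 size factors or site 1 alone. Members higher from day 30 to day 60 were 0, and 1 (L23a) with total tags. Members lower on day 60 were 2 against day 30 and 2 against day 10, and in each case 1 with site 1 alone or without L22e. With a minimum of 1 scaled TPM they were 3 in each case, which added L26. Against TMM, all log2 ratios shifted with total tags by 0.29, -0.36, -0.03, 0.37 and 0.28 in order of comparison, and DESeq2 size factors by 0.14, -0.06, 0.04, -0.07 and 0.05. As a share of the listed tags, the members took 1.26%, 1.60%, 1.17%, 2.23% and 2.50% in order of day. The listed tags include those of Unigene51171, whose part differed between libraries. Without it they were 534343 of 1339346 on day 20 and 479908 of 600848 on day 30. The medians stayed within those wide intervals but moved. Over the alternatives they ranged from -0.02 to 0.26 from day 10 to day 15, from 0.08 (minimum of 1 scaled TPM) to 0.85 (DESeq2) for day 20 against day 15, from -0.44 (without L22e) to -0.05 for day 30 against day 20, from -0.16 to 0.27 (total tags) for day 60 against day 30, and from -0.01 to 0.55 for day 60 against day 10. The sign of the median changed in the first and the last 2 of these. With DESeq2 size factors L35a, at 10.1 scaled TPM on day 60 in the main analysis, fell under the minimum and left the set. The DESeq2 medians therefore reflect this loss as well as the scaling, which for day 20 against day 15 shifted ratios by -0.06 only. The share at site 1 moved within its interval with members of 10 scaled TPM alone. No paired analysis was possible because there was 1 library per day. Low tag counts widen the intervals of members under 10 scaled TPM. The causes of these shifts were not tested beyond what each alternative leaves out.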

Other observations

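The L23a unigene (Unigene61228) was listed with 28 further tags at site 1 that each differ from the main tag by 1 base. Together they had 150 copies against 28064 of the main tag, 0.532% of the site, and none had more than 7 copies in a library. L9 (Unigene23715), with 27452 copies of its main tag, had 1 such tag with 7 copies, 0.0255%, and S10 (Unigene86218), with 12366, had none. S3 (Unigene22111) had 1, A19G, with 8 copies, and S14 (Unigene5028) had 3, T13G, G20A and A21G, with 9 copies together, positions being counted from 1 at the C of CATG.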
